A study of Mus musculus with 6 samples.

Results

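The RNA of 10 genes of GABAergic interneurons was followed through 6 RNA-seq libraries of mouse hippocampus. The genes were taken from a fixed list of symbols (Gad1, Gad2, Slc32a1, Pvalb, Sst, Vip, Npy, Cck, Reln and Lamp5), a rule that uses no measured value, although the list was drawn up with earlier results of these data known. They are 10 of 37315 gene identifiers in the files, and 26277 of these had reads in some library. All 10 were detected in every library, with 240 to 10484 counts per gene and library, and each passed the minimum of 10 counts in every comparison.

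All libraries came from 4-week-old mice of the C57BL/6J strain. In the Nestin-Cre pair, a control with both Prrc2a alleles floxed (Prrc2a flox/flox, here Nes f/f) was set against the same genotype plus nestin-cre, a driver active in neural progenitors and therefore in the descent of both neurons and glia. In the Olig2-Cre pair, a separate Prrc2a flox/flox control (Olig2 f/f) was set against the genotype plus Olig2-cre, active in cells that express Olig2, mainly the oligodendrocyte lineage but also progenitors of the ventral forebrain. The study reports that this Cre is under the endogenous Olig2 promoter and makes the mice haploinsufficient for Olig2. This pair therefore also differs in Olig2 dose, whose part was not tested. The Fto pair set wild-type mice (WT) against Fto transgenic mice (Fto Tg), whose transgene was introduced by lentivirus under the ubiquitin C promoter according to the study's methods. Prrc2a binds RNA that carries N6-methyladenosine, and Fto demethylates such RNA. Neither f/f control carries Cre, no library with Cre alone was analysed here, and it is not stated whether several mice were pooled. Each group had 1 library, so differences within a pair have no replicate check, and every interval given covers counting error only.

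GABAergic interneurons are the inhibitory cells of the hippocampus. They make GABA from glutamate with 2 glutamate decarboxylases, load it into synaptic vesicles, and release it onto pyramidal cells, granule cells and each other. Classes of interneurons are told apart by the calcium-binding protein or neuropeptide that they carry, and some of these genes, such as Cck, are also expressed in excitatory neurons. In whole hippocampus, fewer cells of a class and less RNA per cell cannot be told apart.

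Levels were read as CPM, the count scaled to a library total of 1000000. Totals ranged from 18616540 to 35482589 counts, so that 3 counts correspond to 0.0845 to 0.161 CPM. Prrc2a was at 434 CPM in Nes f/f and 184 CPM in Nestin-Cre, at 389 CPM in Olig2 f/f and 346 CPM in Olig2-Cre, and Fto was at 158 CPM in WT and 354 CPM in Fto Tg. The Nestin-Cre library stood apart from the other 5, with 26.2% of its counts on mitochondrially encoded genes against 7.97% to 8.86%. The pan-neuronal list (15 genes of neurons of any kind, such as Snap25 and Map2) had a geometric mean of 452 to 467 CPM in all 6 libraries. Single genes of this list moved in both directions in the Nestin-Cre pair. Nefm had 269 CPM in Nes f/f and 1088 CPM in Nestin-Cre, and Eno2 had 700 and 209 CPM. Prox1, from the list of dentate granule cell genes, was between 105 and 117 CPM in every library. Other genes of that list moved, as C1ql2 had 48.2 CPM in Nes f/f and 14.1 CPM in Nestin-Cre, and Dsp 47.2 and 70.4 CPM.

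The 2 decarboxylase genes are paralogs, and the 2 sequences that follow show why their counts can be separated. They are the most alike stretch of 120 coding bases in Gad1 and Gad2, with the differing bases in capitals, positions counted from the start codon (Gad1 1296 to 1415, Gad2 1272 to 1391, GENCODE M21 on GRCm38):
Gad1: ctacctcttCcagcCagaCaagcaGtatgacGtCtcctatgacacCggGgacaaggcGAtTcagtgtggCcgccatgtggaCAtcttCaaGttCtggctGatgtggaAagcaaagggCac
Gad2: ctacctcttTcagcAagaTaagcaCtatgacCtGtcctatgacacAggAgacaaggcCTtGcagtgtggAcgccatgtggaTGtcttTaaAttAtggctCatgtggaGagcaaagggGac
Even in this stretch 20 of 120 bases differ. The longest run of identical bases shared by the 2 transcripts is 17, shorter than the 101-base reads.

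Base composition enters a comparison of the Nestin-Cre pair, so the first 120 coding bases are shown for Vip and Slc32a1, the genes whose longest transcripts have the lowest and the highest GC content of the 10 (38.7% and 61.9%), with G and C in capitals:
Vip: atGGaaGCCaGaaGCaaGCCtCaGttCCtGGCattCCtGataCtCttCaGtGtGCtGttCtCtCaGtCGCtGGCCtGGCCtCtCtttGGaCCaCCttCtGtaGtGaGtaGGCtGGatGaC
Slc32a1: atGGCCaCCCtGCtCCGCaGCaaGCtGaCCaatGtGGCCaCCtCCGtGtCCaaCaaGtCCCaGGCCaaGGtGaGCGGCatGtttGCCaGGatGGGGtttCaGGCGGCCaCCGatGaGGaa
These stretches hold 64 (Vip) and 74 (Slc32a1) G or C bases of 120.

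Gad1, Gad2, Slc32a1 and Lamp5 all lie on the plus strand of mouse chromosome 2. Gad1 spans chr2:70553072-70602014, Gad2 spans chr2:22622205-22693874, Slc32a1 spans chr2:158610767-158615748 and Lamp5 spans chr2:136052239-136069917. Exons of Slc32a1 share 697 bases (24.9% of its exon length) with Gm14205, an antisense gene with 0 or 1 count per library. In the counting mode of the authors, reads over bases that 2 genes share in their annotation are not counted, so Slc32a1 counts may come from only the rest of its exons. Reln shares 246 exon bases (1.04%) with the antisense gene Gm10475, and the other 8 genes share none.

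Levels can be compared between genes only per length, so control levels are given as CPM per kilobase of the longest coding transcript (RPKM). Over the 3 control libraries (both f/f libraries and WT), Cck was highest at 303 ± 28.4 RPKM (SD, n = 3). Sst followed at 199 ± 25.5 RPKM, Gad1 at 78.9 ± 5.29, Npy at 68.9 ± 7.15, Pvalb at 32.2 ± 3.72, Gad2 at 26.0 ± 2.99, Slc32a1 at 19.1 ± 2.35, Lamp5 at 17.9 ± 3.14, Vip at 14.7 ± 3.59 and Reln at 6.75 ± 1.21. The ranges of the 3 controls overlapped for Gad1 and Npy, for Pvalb and Gad2, for Slc32a1 and Lamp5, and for Lamp5 and Vip, so these neighbors were not ordered beyond their spread. With the union of all exons as length, Sst (199 ± 25.5) stood above Cck (186 ± 17.4) and Npy (68.9 ± 7.15) above Gad1 (34.6 ± 2.32), since the union is longer for Cck (1305 against 799 bases) and Gad1 (7639 against 3355 bases). These controls come from 3 experiments and 2 genotypes, and their spread therefore also contains those differences.

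**Figure D1:**
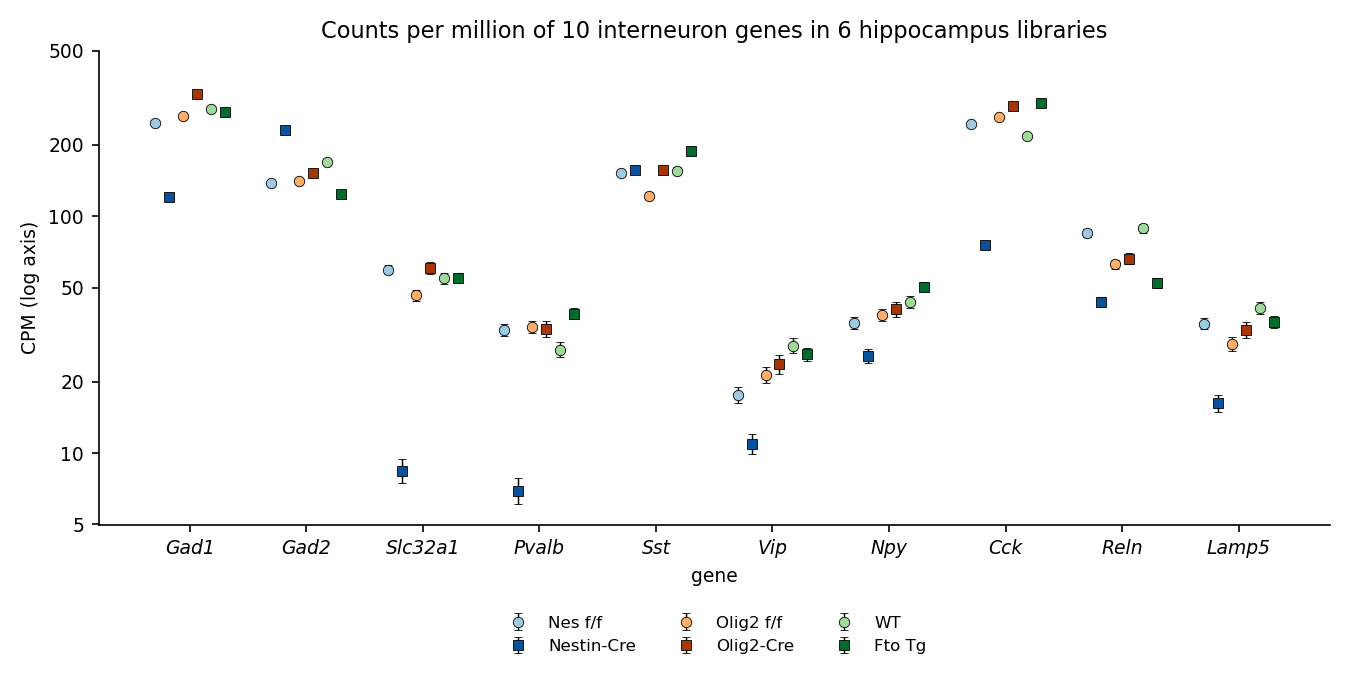
CPM (log axis) of the 10 genes in each of the 6 libraries, circles for control libraries and squares for Nestin-Cre, Olig2-Cre and Fto Tg; bars are 95% Wilson intervals for counting error, often smaller than the symbol. The dark blue squares of Nestin-Cre lie below all circles for 8 genes and above them for Gad2 and Sst, most widely apart for Slc32a1 (8.37 CPM) and Pvalb (6.90 CPM).

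The first question was whether the interneuron genes differed after deletion of Prrc2a in the neural lineage. In the Nestin-Cre library 8 of the 10 genes were called lower than in Nes f/f and 1, Gad2, was called higher, while Sst differed by less than the threshold. A gene was called when the read test (the MARS formulas of DEGseq) gave a false discovery rate (FDR) below 0.001 and the fold was at least 1.2. Of all 18170 genes tested in this pair 64.9% were called, 53.4% lower and 11.5% higher, and the median log2 ratio of all genes was -0.72. The median of the 10 genes was -1.004, and 4 of them (Gad2, Sst, Npy and Vip) lay above the median of all genes. The shares of calls are thus to be read against a pair in which most genes were called.

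The genes for GABA synthesis moved apart. Gad2 encodes the smaller decarboxylase (GAD65), which is concentrated at nerve terminals. It had 138 CPM in Nes f/f and 232 CPM in Nestin-Cre, a log2 ratio of 0.75. The other 4 libraries had 124 to 169 CPM of Gad2, so that the Nestin-Cre library lay above all of them. Gad1 encodes the larger enzyme (GAD67), which supplies most GABA in the cell body. It had 247 CPM in Nes f/f and 120 CPM in Nestin-Cre, a log2 ratio of -1.04, against 265 to 330 CPM in the other 4 libraries. Within the Nestin-Cre library there were 1.93 Gad2 counts for each Gad1 count, whereas this ratio was 0.452 to 0.599 in the other 5 libraries, and it does not depend on how libraries are scaled.

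Slc32a1, which encodes the vesicular GABA transporter (VGAT), showed the largest difference of the 10 before adjustment for GC content and length. Its level was 59.4 CPM in Nes f/f (95% interval 56.9 to 62.0) and 8.37 CPM in Nestin-Cre (7.46 to 9.39), 7.09-fold less. The remaining libraries had between 46.4 and 60.5 CPM. Counts of Slc32a1 per Gad1 count were 0.0696 in Nestin-Cre and 0.175 to 0.241 elsewhere. These genes differ in GC content (61.9% for Slc32a1, 47.3% for Gad1). Genes of like GC content had median log2 ratios of -1.85 and -0.47 in this pair. In a fit adjusted for GC content and length, the log2 ratios were -0.87 for Slc32a1 and -0.64 for Gad1. There Sst (1.60), Pvalb (-1.26), Gad2 (1.06) and Npy (0.93) were larger in size than Slc32a1. The part of GC content in these values was not tested. The geometric mean of the 3 core genes Gad1, Gad2 and Slc32a1 was 13.4% of that of the pan-neuronal list in Nestin-Cre and 26.4% to 31.0% in the other libraries. This mean is not adjusted for GC content. It joins Gad2, called higher (0.75), with Gad1 (-1.04) and Slc32a1 (-2.82), both called lower.

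**Figure D2:**
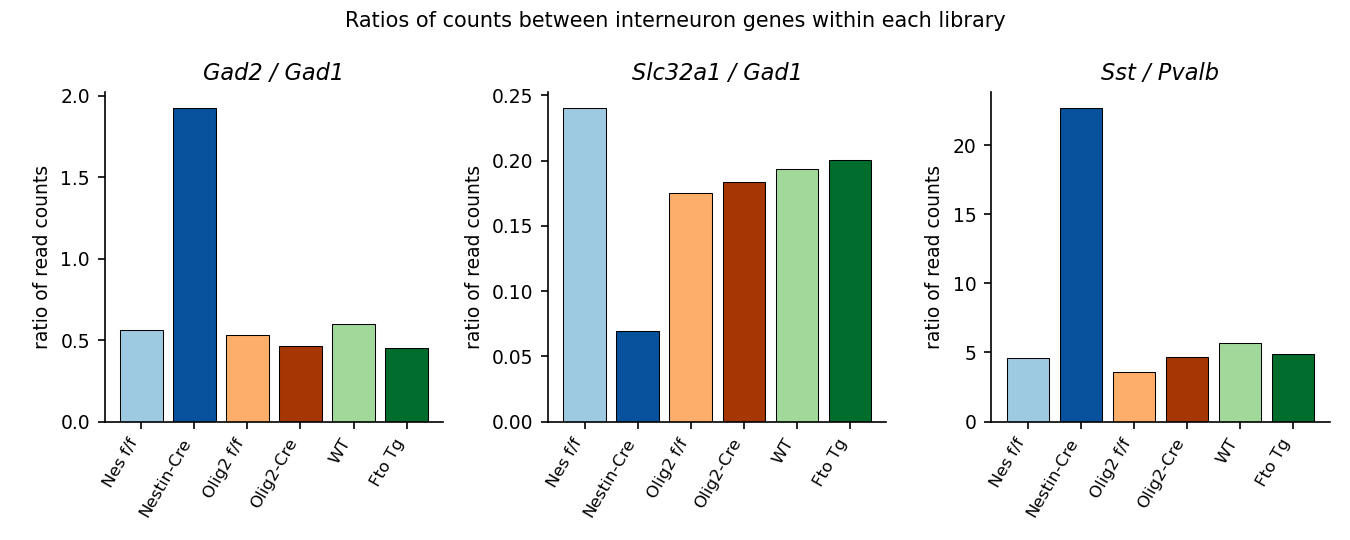
Ratios of read counts between genes within each of the 6 libraries (linear axes from 0), for Gad2 over Gad1, Slc32a1 over Gad1 and Sst over Pvalb. The Nestin-Cre bar is the highest for Gad2 over Gad1 (1.93) and Sst over Pvalb (22.7) and the lowest for Slc32a1 over Gad1 (0.0696). The counts are not adjusted for GC content.

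Pvalb and Sst mark the 2 large classes of interneurons that descend from the medial ganglionic eminence. Pvalb (chr15:78191114-78206400, minus strand), the calcium buffer of fast-spiking basket and axo-axonic cells, was at 33.1 CPM in Nes f/f (interval 31.3 to 35.1) and at 6.90 CPM in Nestin-Cre (6.08 to 7.83), 4.79-fold less. The other libraries held 27.3 to 38.7 CPM. Sst (chr16:23889573-23890958, minus strand), the peptide of dendrite-targeting cells such as oriens-lacunosum moleculare cells, had 152 CPM in Nes f/f and 157 CPM in Nestin-Cre, a log2 ratio of 0.04 that was not called. The ratio of Sst to Pvalb counts was 22.7 in Nestin-Cre and 3.59 to 5.70 in the other 5 libraries.

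The remaining markers were called lower. Cck (chr9:121489824-121495694, minus strand), a peptide of a class of basket cells that pyramidal cells also make, had 245 CPM in Nes f/f and 75.9 CPM in Nestin-Cre (log2 ratio -1.69). Lamp5, a membrane protein of neurogliaform cells, had 35.2 and 16.2 CPM (-1.12). Reln (chr5:21884454-22344702, minus strand), the secreted glycoprotein of neurogliaform and Cajal-Retzius cells, had 85.1 and 43.4 CPM (-0.97). In the other 4 libraries Cck was at 218 to 300.5 CPM, Lamp5 at 28.7 to 41.0 CPM and Reln at 52.3 to 89.0 CPM, none of them as low as in Nestin-Cre. Vip (chr10:5639218-5647617, plus strand), the peptide of cells that inhibit other interneurons, had 17.5 and 10.9 CPM (-0.68). Npy (chr6:49822710-49829507, plus strand), a peptide of neurogliaform and ivy cells, had 35.5 and 25.7 CPM (-0.47). For Vip and Npy the sign depended on the scaling, as their log2 ratios were 0.00 and 0.22 with TMM factors and 0.03 and 0.25 with DESeq2 size factors, none of them called.

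TMM scaling moved the median of all genes from -0.72 to -0.03. With it Gad2 (1.43) and Sst (0.73) were called higher, and Slc32a1 (-2.14), Pvalb (-1.58), Cck (-1.01), Lamp5 (-0.43), Gad1 (-0.35) and Reln (-0.28) lower. Of all 18170 genes, 10650 were called with TMM, 5185 higher and 5465 lower. The TMM counts of gene lists given below for this pair are to be read against these shares. Sst was also called higher with totals that leave out mitochondrially encoded genes (0.36) and against Olig2 f/f (0.36), and had -0.11 when ratios were centered on the pan-neuronal list. The direction of Gad2, Gad1, Slc32a1 and Pvalb was the same in all 11 alternatives that were run. However, alternatives that changed only the minimum count or the fold threshold left each ratio as it was. A pseudocount of 5 and the exact test moved it little (0.748 for Gad2 in both), so none of these could test direction. Calls of these genes were lost in 1 case, Gad2 in edgeR's exact test, which used the dispersion of the controls. That test called 5 of the 10 genes, all lower (Cck, Gad1, Lamp5, Pvalb and Slc32a1), and 6224 of all 18170 genes.

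**Figure D3:**
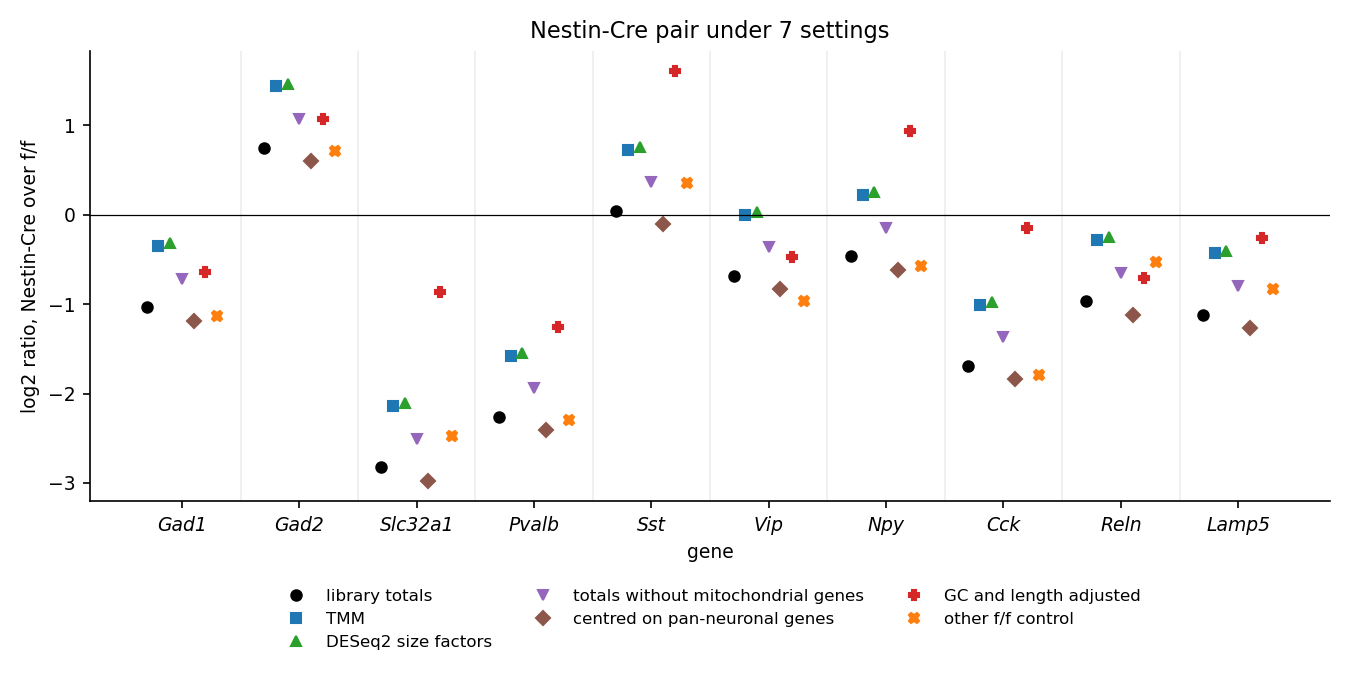
Log2 ratio of Nestin-Cre over f/f for each of the 10 genes under 7 settings of scaling, adjustment or control library (symbols in the legend). All symbols of Gad2 lie above 0 and all of Gad1, Slc32a1, Pvalb, Cck, Reln and Lamp5 below 0, whereas those of Sst, Vip and Npy lie on both sides.

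In this pair the log2 ratio also moved with GC content, and each gene is therefore set beside all genes whose longest transcript lay within 1 percentage point of its own GC content. Gad2 (44.1% GC) had a log2 ratio of 0.75 where the 1686 genes of like GC had a median of -0.35. Sst (56.0% GC) had 0.04 against a median of -1.26 over 1589 genes. Npy (53.7% GC) had -0.47 against -1.02 over 1850 genes. These 3 genes lay above the genes of like composition, and the other 7 lay below them. Pvalb (49.3% GC) had -2.26 against -0.68 over 1989 genes, and Slc32a1 had -2.82 against -1.85 over 304 genes. Gad1 (47.3% GC) had -1.04 against -0.47, and Vip -0.68 against -0.07. The gap was smaller for Cck (-1.69 against -1.32), Lamp5 (-1.12 against -0.76) and Reln (-0.97 against -0.77). In the fit adjusted for GC and length, Slc32a1 (-0.87), Pvalb (-1.26), Gad1 (-0.64), Reln (-0.71) and Vip (-0.48) were called lower, Sst (1.60), Gad2 (1.06) and Npy (0.93) higher, and Cck (-0.14) and Lamp5 (-0.26) were not called. That fit called 9882 of all 17840 genes, 4936 higher and 4946 lower. The part of GC content and of the mitochondrial share in these differences was not tested.

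**Figure D4:**
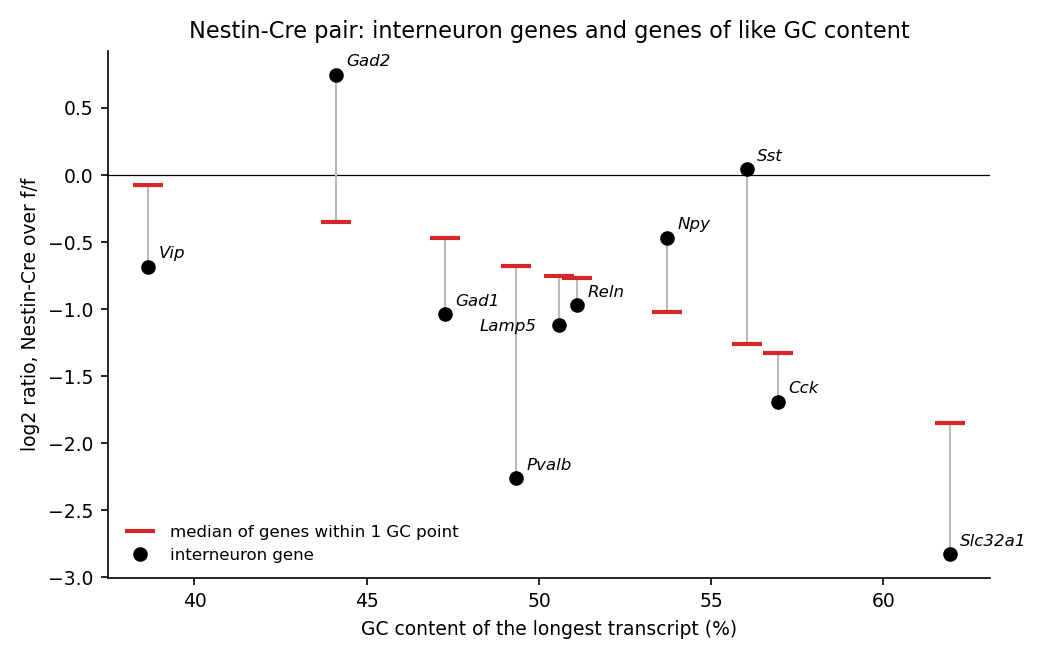
Log2 ratio of Nestin-Cre over f/f (vertical axis) against the GC content of the longest transcript in percent (horizontal axis) for the 10 genes (points), each joined to the median ratio of all tested genes within 1 percentage point of GC (red bars). The medians fall from -0.07 at the GC content of Vip to -1.85 at that of Slc32a1, and Gad2, Npy and Sst lie above their bars.

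The second comparison concerned deletion with Olig2-Cre. In the Olig2-Cre pair 3 of the 10 genes were called, all higher in Olig2-Cre: Gad1, Slc32a1 and Sst. Of all 17742 genes 11.9% were called, 4.95% higher and 6.91% lower. Slc32a1 stood at 46.4 CPM in Olig2 f/f (interval 44.0 to 49.0) and at 60.5 CPM in Olig2-Cre (57.1 to 64.2), giving 0.38 on the log2 scale. Sst had 122 and 157 CPM (0.36), and Gad1 stood at 265 CPM (interval 259 to 271) and 330 CPM (321 to 338), giving 0.32. For Slc32a1 and Sst the control of this pair, Olig2 f/f, held the lowest value of the 3 controls, and against Nes f/f their log2 ratios were 0.03 and 0.05, not called. Gad1 in Olig2-Cre was the highest of all 6 libraries and was called higher against that control too (0.42), but not when ratios were centered on the pan-neuronal list (0.26). Adjusted for GC and length, Slc32a1 (0.24) and Sst (0.08) were not called and Reln was called higher (0.31). The other 7 genes had log2 ratios from -0.02 (Pvalb) to 0.20 (Lamp5), with 0.11 for Gad2. The exact test called none of the 10 genes and 23 of all genes, and with a fold threshold of 1.5 none of the 10 was called. The choroid plexus list had a summed level of 2207 CPM in Olig2 f/f and 3454 CPM in Olig2-Cre, and its part in these differences was not tested.

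The Fto pair asked how the same genes stood when Fto was raised. In Fto Tg 5 of the 10 genes were called, Pvalb, Cck and Sst higher and Reln and Gad2 lower. Of all 18051 genes 15.5% were called, 6.97% higher and 8.51% lower, with a median of -0.01. Reln was at 89.0 CPM in WT (interval 85.4 to 92.7) and at 52.3 CPM in Fto Tg (49.9 to 54.7), a log2 ratio of -0.77 and the only one past a fold of 1.5. Gad2 had 169 CPM (164 to 174) and 124 CPM (121 to 128), a log2 ratio of -0.44. Both were below all 3 controls in Fto Tg, and in both WT was the highest control. Pvalb was at 27.3 CPM in WT (interval 25.4 to 29.5) and at 38.7 CPM in Fto Tg (36.7 to 40.8), a log2 ratio of 0.50. Cck had 218 and 300.5 CPM (0.46), and Sst had 156 and 189 CPM (0.28). For Pvalb and Cck WT was the lowest control, and all 3 genes were above the 3 controls in Fto Tg. Gad1 (-0.04) and Slc32a1 (0.01) were not called in this pair, at 282 and 275 CPM and at 54.7 and 55.1 CPM. Adjusted for GC and length, Sst (-0.03) and Cck (0.19) were not called and Lamp5 was called lower (-0.28), and centering on the pan-neuronal list also ended the call of Sst (0.21). The exact test called none of the 10 genes and 33 of all genes. Summed CPM of the choroid plexus list was 1663 in WT and 701 in Fto Tg, with all 8 genes called lower, and the part of this difference in the values above was not tested.

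**Figure D5:**
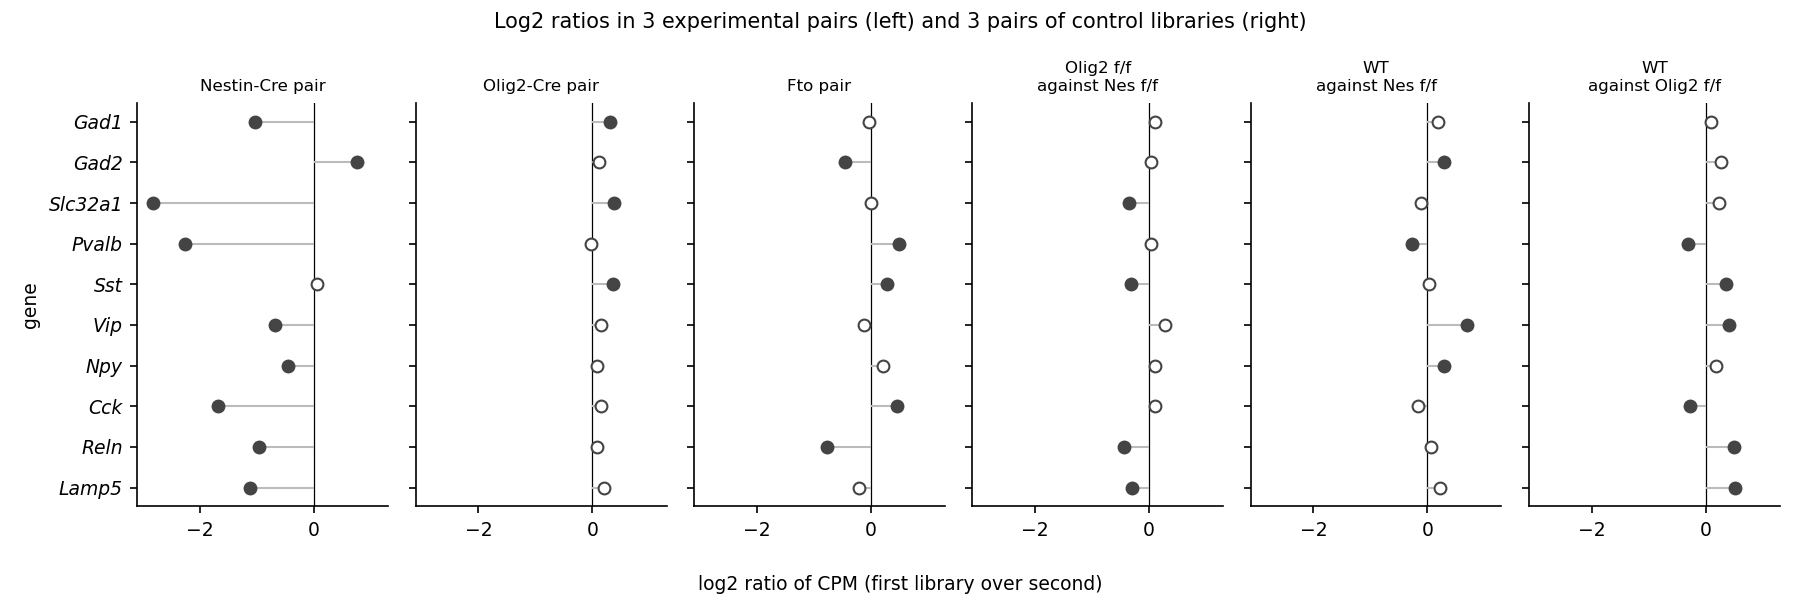
Log2 ratios of CPM of the 10 genes (rows) in the Nestin-Cre, Olig2-Cre and Fto pairs and in the 3 pairs of control libraries, altered library over control or first over second named library (for f/f against f/f, Olig2 f/f over Nes f/f). Filled points were called by the read test and open points were not; ratios reach -2.82 in the Nestin-Cre pair and lie between -0.77 and 0.69 in the other 5 pairs.

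Pairs of control libraries show how far these genes differ where neither library carries Cre or the transgene. Between the 2 f/f libraries 4 of the 10 genes were called, against 13.1% of all genes, and all 4 were lower in Olig2 f/f: Reln (-0.44), Slc32a1 (-0.36), Sst (-0.32) and Lamp5 (-0.29). WT differed from Nes f/f in 4 genes (17.3% of all genes), with Vip (0.69), Gad2 (0.29) and Npy (0.29) higher and Pvalb (-0.28) lower. WT differed from Olig2 f/f in 6 genes (7.2% of all genes), with Lamp5 (0.51), Reln (0.50), Vip (0.41) and Sst (0.35) higher and Pvalb (-0.32) and Cck (-0.27) lower. Gene by gene, the log2 ratios called in the Olig2-Cre pair were close to the largest size between controls for Slc32a1 (0.38 against 0.36) and Sst (0.36 against 0.35) and above it for Gad1 (0.32 against 0.19). In the Fto pair Reln (0.77 against 0.50), Gad2 (0.44 against 0.29), Cck (0.46 against 0.27) and Pvalb (0.50 against 0.32) lay above the largest size between controls, and Sst (0.28 against 0.35) lay below it. In the Nestin-Cre pair the size of the ratio was above it for every gene but Sst (0.04) and Vip (0.68 against 0.69). These ratios used library totals, with which the median of all genes in that pair was -0.72. With TMM, Reln (-0.28), Lamp5 (-0.43), Npy (0.22) and Vip (0.00) were smaller in size than the largest ratio between controls (0.49, 0.50, 0.28 and 0.68). The remaining genes were larger in size, Sst (0.73 against 0.34) among them.

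Against the range of the 3 controls, the Nestin-Cre library was outside for all 10 genes, above it for Gad2 and Sst and below it for 8, and 88.4% of 16607 genes were outside. For Sst the margin was small, with 157 CPM (153 to 161) in Nestin-Cre and 156 CPM in WT. With TMM factors 8 of the 10 genes were outside in Nestin-Cre (Npy and Reln were inside), as were 14122 of the 16607 genes. With DESeq2 size factors 7 were outside (Vip, Npy and Reln were inside), as were 14121 of all genes. Olig2-Cre was above the range for Gad1, Slc32a1, Sst and Cck and below it for none, where 59.3% of all genes were outside. Its Sst level of 157 CPM (152 to 163) was 1 of these, with WT at 156 CPM (151 to 161). Fto Tg was above the range for Pvalb, Sst, Npy and Cck and below it for Gad2 and Reln, where 58.6% of all genes were outside. The 6 of 10 genes outside in Fto Tg were near the share of all genes, and the 4 of 10 in Olig2-Cre were below it.

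The only contrast with more than 1 library per arm set both Cre libraries against both f/f libraries with edgeR's quasi-likelihood test at an FDR of 0.05. None of the 10 genes passed (adjusted p from 0.955 to 0.988), and 0% of 16921 genes did. None of the 10 had an unadjusted p under 0.05 (143 of all genes had), and DESeq2 called none of the 10 and 3 of all genes. The log2 ratio of Gad2 was 0.92 ± 0.51 (SE), that of Sst 0.58 ± 0.39, that of Pvalb -0.59 ± 0.57 and that of Slc32a1 -0.51 ± 0.72. The biological coefficient of variation was 0.399 over these 4 libraries and 0.133 over the 3 controls. Leaving out Olig2-Cre, which leaves Nestin-Cre alone against both f/f libraries and assumes it varies as they do, Gad2 (1.44), Sst (0.90), Slc32a1 (-1.96), Pvalb (-1.58) and Cck (-1.04) passed, as did 8480 of all genes.

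Genes that handle GABA after its release were taken from a list of 13. In the Nestin-Cre pair 11 were called lower and 1 higher (list median -0.84, all genes -0.72), and with TMM 5 lower and 2 higher (median -0.16). Slc38a3, a glutamine transporter of astrocytes, had the largest fall, from 65.0 CPM in Nes f/f to 19.8 CPM in Nestin-Cre (-1.72). Slc1a1, a neuronal glutamate transporter that supplies glutamate for GABA synthesis, rose from 102 to 187 CPM (0.87). Glul, the glutamine synthetase of astrocytes, was at 1381 and 1284 CPM and was not called. With Olig2-Cre, 2 were called higher and none lower (list median 0.00). In the Fto pair Slc6a13 (0.53) was called higher and 2 were called lower.

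Transcription factors of interneuron development (20 genes) were divided in the Nestin-Cre pair, with 6 called higher and 11 lower and a median of -0.37, but with TMM 10 higher and 5 lower and a median of 0.32. Nkx2-1, which specifies interneurons of the medial ganglionic eminence, had 25.1 CPM in Nestin-Cre, 2.85 CPM in its f/f control and 0.913 to 1.55 CPM in the other 4 libraries, a log2 ratio of 3.13. The genes called higher also included Zeb2 (0.91) and Etv1 (0.95), and Dlx5, Lhx6 and Maf, which were named after their values were seen. Lhx6, which acts downstream of Nkx2-1, had a log2 ratio of 1.19 and Dlx5 of 1.34. On the other side were Sp8 (-2.22), a factor of caudal ganglionic eminence cells, Npas1 (-2.18) and Sox11 (-2.01). With Olig2-Cre, 2 were called higher, led by Npas1 (0.51), and 5 lower, led by Sox11 (-0.74), which was also called lower in WT than in Nes f/f (-1.17). In the Fto pair Satb1 (-0.39) alone was called.

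Further subtype markers (32 genes) had 18 called lower and 7 higher in the Nestin-Cre pair (median -0.58), and with TMM the balance turned to 8 lower and 11 higher (median 0.10). Penk, which encodes enkephalin, had 11.7 CPM in Nes f/f and 32.7 CPM in Nestin-Cre (1.48), and Cort, a peptide close to Sst that is found in part of the Sst cells, had 3.38 and 0.633 CPM (-2.39). Nos1, the neuronal nitric oxide synthase of ivy and long-range projecting Sst cells, was called higher as well (1.09) and was named after its values were seen. Cnr1, the cannabinoid receptor of Cck basket cells, had 196 and 89.8 CPM (-1.12), and Erbb4, the neuregulin receptor, had -0.58 but 0.10 with TMM. With Olig2-Cre, 4 were called higher, led by Cort (0.95), and Erbb4 (-0.32) was called lower. In the Fto pair 4 were called higher, led by Cox6a2 (1.005) and with Cort at 0.75, and 7 lower, led by Htr3a (-0.65) and with Erbb4 at -0.62. Between controls, Cox6a2 (-0.74) and Erbb4 (0.47) were also called for WT over Nes f/f.

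Perineuronal net genes (9, linked to the matrix around Pvalb cells) had 5 called lower and 1 higher in the Nestin-Cre pair (median -0.36). With TMM 2 were lower and 4 higher (median 0.32). Which cells held this RNA cannot be told in whole hippocampus. Bcan, encoding brevican, had 264 CPM in Nes f/f and 56.0 CPM in Nestin-Cre (-2.24), and Ptprz1 was called higher (0.32). Tnr, encoding tenascin-R, was called lower in the Olig2-Cre pair (-0.68) and in the Fto pair (-0.68), with 2 and 3 of the 9 called lower there, but it was also called lower in Olig2 f/f than in Nes f/f (-0.74) and in WT than in Nes f/f (-0.63). Hapln4, a link protein of the nets, was called higher in Fto Tg (0.42). Ncan, encoding neurocan, had log2 ratios of -0.06, 0.04 and -0.14 in the 3 pairs and was not called.

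Receptors for the peptides and for reelin (15 genes, 14 tested in each pair) had 9 called lower and none higher in the Nestin-Cre pair (median -0.73), and 5 higher and 4 lower with TMM. Sstr1, a somatostatin receptor, had the largest fall (-1.86), and Adcyap1r1, the PACAP receptor, had 206 and 68.8 CPM (-1.58). Dab1, the adaptor through which reelin acts, had 133 and 155 CPM and was not called. In the Olig2-Cre pair 2 were called lower, led by Sstr4 (-0.55). Sstr4 was also called lower in WT than in Nes f/f (-0.39) and than in Olig2 f/f (-0.37). In the Fto pair Npy2r (0.34) was called higher and 4 lower, led by Cckbr (-0.52), the brain receptor of the Cck peptide, which differed by -0.69 between the f/f libraries.

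Genes for peptide processing and dense-core vesicles (14) had 8 called lower and 4 higher in the Nestin-Cre pair (median -0.69), and with TMM 4 lower and 6 higher (median -0.00). Chgb, encoding the granin chromogranin B, rose from 600.4 to 2878 CPM (2.26), and Pcsk1n, encoding an inhibitor of the prohormone convertase PC1, fell from 477 to 50.5 CPM (-3.24). Cpe, the carboxypeptidase that trims prohormones, had 2371 and 1178 CPM (-1.01). In the Olig2-Cre pair Pcsk1n (0.35) was called higher and Chgb (-0.31) lower, with -0.32 for Chgb and -0.28 for Pcsk1n in WT over Nes f/f. Pcsk1, the convertase itself, was called lower in Fto Tg (-0.93), the only gene of the 14 called there. Pcsk1 was also called between controls, with -0.44 for Olig2 f/f over Nes f/f and 0.51 for WT over Olig2 f/f.

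Markers of other cells that a hippocampal sample could hold were counted in the same way. In the Nestin-Cre pair the list of hippocampal excitatory neurons had 12 of 15 called lower and 1 higher (median -0.62), dentate granule cells 3 lower and 3 higher of 9 (-0.24), Cajal-Retzius cells, another source of Reln, 2 lower and 1 higher of 8 (0.09), and the pan-neuronal list 4 lower and 7 higher of 15 (0.15). With TMM these became 6 lower and 5 higher for excitatory neurons (0.07), 1 lower and 6 higher for granule cells (0.45), 1 lower and 4 higher for Cajal-Retzius cells (0.78) and 2 lower and 11 higher for the pan-neuronal list (0.84). Within the Cajal-Retzius list, genes at few CPM moved apart. Trp73 fell from 4.14 CPM in Nes f/f to 1.09 CPM in Nestin-Cre (-1.91, -1.22 with TMM). Eomes rose from 1.13 to 2.22 CPM (0.97, 1.65 with TMM). In the Fto pair excitatory neurons had 7 called higher and 3 lower (0.21), and Cajal-Retzius genes 1 higher and 1 lower (0.29), beside the lower Reln. Summed CPM of the striatum list, whose projection neurons are GABAergic too, was 161 in Nestin-Cre and 220 to 239 in the other libraries, and that of the thalamus list was 144 and 191 to 255. The choroid plexus list had 275 CPM in Nestin-Cre and 2900 CPM in its f/f control. Immediate early genes, which follow neuronal activity, summed to 837 and 671 CPM in the Nestin-Cre pair, 657 and 502 CPM in the Olig2-Cre pair and 370 and 394 CPM in the Fto pair. Of these 11 genes, 9 were called lower and 2 higher in the Nestin-Cre pair (median -1.14), and 6 lower and 3 higher with TMM (-0.45). Egr1 rose there from 222 to 419 CPM. Between controls, WT over Nes f/f had 10 called lower and 1 higher (-1.16). Of the 15 mitochondrially encoded genes tested in the Nestin-Cre pair, 12 were called higher and 3 lower (median 2.08). The part of these lists in the values of the interneuron genes was not tested.

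The genes whose pattern over the 6 libraries was most like the mean pattern of Gad1, Gad2 and Slc32a1 were Faim2, Ift122, Cav1, Rcan3 and Tonsl, with a root mean square difference of centered log2 CPM of 0.045 to 0.059 among 11635 genes of at least 5 CPM. Faim2, for instance, had 395 CPM in Nes f/f and 197 CPM in Nestin-Cre and 392 to 445 CPM in the other libraries. Gad1 itself was at 0.090 from this mean, Slc32a1 at 0.616 and Gad2 at 0.665, so that of the 3 core genes Gad1 alone followed their mean closely. The mean contains Gad1 itself. In the Nestin-Cre pair the log2 ratios of Gad2 (0.75) and Slc32a1 (-2.82) lie on either side of that of Gad1 (-1.04). The nearest genes therefore match a mean pattern that neither Gad2 nor Slc32a1 shows. Among the other 7 genes Lamp5 was closest (0.139) and Pvalb farthest (0.487).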

How the data were processed

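Total RNA was extracted from hippocampus with TRIzol, and mRNA was isolated with Dynabeads before TruSeq library preparation. The authors deposited whole-number read counts per Ensembl gene, without normalization; according to the methods, reads were trimmed with Cutadapt, filtered with Trimmomatic, aligned to mm10 with TopHat and counted with HTSeq in union mode without strand. The submitters' processing notes name TopHat2 2.0.9 and HTSeq 0.6. Reads were single or paired according to the labels and paired according to the methods. Symbols, coordinates, lengths and GC content came from GENCODE M21 on GRCm38 (the assembly of mm10). Symbols were found for 95.2% of identifiers, and length and GC content for 96.9% of genes with a read.

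The 10 genes and all gene lists were chosen with earlier results of these data known. CPM were counts divided by the library total of 18616540 to 35482589, with Wilson 95% intervals, and a floor of 3 counts. The read test followed the published MARS formulas of DEGseq, programmed in Python 3.11.15 (numpy 2.4.6, scipy 1.17.1, statsmodels 0.14.6), with a pseudocount of 0.5, at least 10 counts over the pair, FDR below 0.001 (Benjamini-Hochberg over all genes tested) and a fold of at least 1.2. It compares libraries and not genotypes. For the Cre contrast, edgeR 4.0.16 (R 4.3.3) was run with TMM factors, filterByExpr and quasi-likelihood tests. Alternatives were TMM factors, DESeq2 1.42.0 size factors, totals without mitochondrially encoded genes, centering on the pan-neuronal list, adjustment for GC content and length (cubic polynomials), the other f/f control, no minimum or a minimum of 100 counts, a pseudocount of 5, a fold of 1.5 and edgeR's exact test. Named were the 10 genes, and of each further list the 3 with the highest mean CPM or the called genes with the largest rise and fall per pair, of which the text gives a selection, plus the 5 genes nearest to the mean pattern of the core genes. Some genes of the GABA cycle list that this rule picks are not reported here.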

Additional observations from a re-analysis of the deposited data

Results flagged for a closer look

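Gad1 and Slc32a1 were called in opposite directions in the pairs with the 2 Cre drivers. The log2 ratio of Gad1 was -1.04 in the Nestin-Cre pair and 0.32 in the Olig2-Cre pair, and that of Slc32a1 was -2.82 and 0.38. With 1 library per group this difference between the drivers was not tested. The positive ratio of Slc32a1 was 0.03, not called, when Olig2-Cre was set against the other f/f library, whereas that of Gad1 was 0.42 and called.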

How the results depend on the processing

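In the Nestin-Cre pair 9 of 10 genes were called and 5 by edgeR's exact test. Under that test 0 of 10 were called in each of the other 5 pairs. With a fold threshold of 1.5 the numbers were 1 for the Fto pair and 0 for the Olig2-Cre pair, and among controls 0 for Olig2 f/f over Nes f/f, 1 for WT over Nes f/f and 0 for WT over Olig2 f/f. Centering on the pan-neuronal list left 2 of the 4 calls for WT over Nes f/f. Among ratios that were called in either setting, the sign turned for Vip in the Nestin-Cre pair (0.00054 with TMM, 0.032 with DESeq2 size factors), for Npy in that pair (0.22 with TMM, 0.25 with DESeq2 size factors, 0.93 after adjustment for GC content and length), for Reln in the Olig2-Cre pair (-0.36 against the other f/f library) and for Sst in the Fto pair (-0.027 after adjustment for GC content and length). Ratios called in neither setting turned sign in 1 case in the Nestin-Cre pair (Sst, -0.11), 5 in the Olig2-Cre pair and 4 in the Fto pair. The cause was not tested. In the contrast of both Cre with both f/f libraries, 0 of 10 genes passed, and leaving out 1 library at a time gave 0 to 5, the 5 without Olig2-Cre. With the experiment as a block, which pairs each Cre library with its own control, 0 of 10 genes and 2 of all genes passed. Of the single-gene ratios under alternatives, 91 of 110 in the Nestin-Cre pair, 96 of 110 in the Olig2-Cre pair and 86 of 100 in the Fto pair kept their call or their lack of one. These numbers include alternatives that changed only the minimum count or the fold threshold and so left each ratio as it was. With 1 library per group, variation between mice could not be estimated in any pair, whatever the depth.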
